A study of Homo sapiens with 6 samples.

Results

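5-Formyluracil is an oxidation product of thymine, in which the methyl group of the base has become a formyl group. It arises in DNA under oxidative stress, it can mispair, and base excision repair removes it. The study asked which thymines carry it in CAL-62, a long-established line of human thyroid carcinoma cells. Genomic DNA was pulled down with azi-BIAN, a reagent for the formyl group. Library preparation at pH 8.8 lets sequencing read 5-formyluracil as C, whereas after preparation at pH 7.2 it reads as T. Untreated input DNA was the third group, and each group has 2 libraries. Only values of the 2 pH 8.8 libraries, called library 1 and library 2 here, were analysed.

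Sites were thymines at which library 1 and library 2 each had C reads, and 967 were listed. The genes ABR, TRAPPC9, RANBP10, AP3D1 and EHMT1 were chosen by the number and spacing of their sites: each holds 2 or 3 that lie more than 1 kb apart, between its start and end in RefSeq (GRCh38.p14, the patch release of hg38). Together they hold 11 of the 967 sites. Of 646 genes with a site, 53 had more than 1, and in 28 of these (52.8%) all sites lay more than 1 kb apart. Of the 28, 4 shared their sites with an overlapping gene. Distances between sites, given below, count each such pair of sites once. The 5 genes are therefore a selection from 28, and their number of sites and their spacing are given as a description, without a test. Each of the 11 sites lay in 1 annotated gene only.

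ABR is a close relative of BCR, the protein known from its fusion with ABL1 in leukaemia. TRAPPC9 is a subunit of the TRAPPII complex, which tethers vesicles at the Golgi, and RANBP10 is a relative of RANBP9 that binds Ran and belongs to the CTLH ubiquitin ligase. AP3D1 is the delta subunit of AP-3, the adaptor that sorts cargo to lysosomes and related organelles. EHMT1, also called GLP, works with EHMT2 (G9a) to methylate lysine 9 of histone H3.

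The table of RefSeq starts used here matched 3 of the 5 genes, and it gave their direction of transcription; starts and direction of TRAPPC9 and AP3D1 were not used here. The 100 bases just before the outermost listed start of each of the 3 genes are printed. They run 5′ to 3′ on the gene's own strand (GRCh38.p14), with T in capitals, the base that can carry the modification.
ABR, chr17:1229723-1229822, minus strand: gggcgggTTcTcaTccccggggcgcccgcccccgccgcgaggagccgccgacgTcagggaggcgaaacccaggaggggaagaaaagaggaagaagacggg
RANBP10, chr16:67806561-67806660, minus strand: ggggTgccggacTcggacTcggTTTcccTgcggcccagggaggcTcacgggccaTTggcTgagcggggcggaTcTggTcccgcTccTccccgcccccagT
EHMT1, chr9:137618905-137619004, plus strand: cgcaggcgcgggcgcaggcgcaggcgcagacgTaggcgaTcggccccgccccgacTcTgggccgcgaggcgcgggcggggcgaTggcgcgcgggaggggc

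The printed strand held 5 T in ABR, 17 in RANBP10 and 5 in EHMT1. Counting A as a T of the opposite strand, 28% of positions in ABR, 26% in RANBP10 and 16% in EHMT1 were a thymine on one strand or the other, against a median of 40% over the 35116 starts listed. None of the 7 sites of these 3 genes lay in a listed promoter window of 300 bases around a start (0 of 7). For 0 of 7, an approximate upper limit, 3 divided by 7, allows a share of up to 42.9%. Of all 967 sites, 5 lay in such a window (0.517%). The sequence around the 11 sites themselves was not used here.

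ABR was the only one of the 28 genes with 3 sites. The gene covers 226.2 kb of chromosome 17 (positions 1003519 to 1229722), and its sites were at 1017577, 1093243 and 1144709, which are 75666 and 51466 bp apart. All 3 were thymines of the plus strand. ABR runs on the minus strand, so each of these thymines is on the template strand.

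At position 1017577, near the 3′ end of the gene, 3 of 14 reads were C in library 1 (21.4%) and 4 of 17 in library 2 (23.5%). At 1093243 there were 12 C reads of 34 (35.3%) in library 1 and 5 of 18 (27.8%) in library 2. At 1144709 there were 7 of 23 (30.4%) and 3 of 14 (21.4%) in the same order. The middle site had the most reads of the 11 in library 1, and more reads than 97.2% of all sites there. Library 1 was higher at 2 of the 3 sites and library 2 at the other.

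RefSeq gives ABR 6 starts, at positions 1229722, 1187272, 1179981, 1126572, 1109102 and 1031831. The site at 1017577 lies downstream of all 6, 14.3 kb from the nearest. The site at 1093243 lies downstream of 5 starts and that at 1144709 of 3, with the nearest upstream start 15.9 and 35.3 kb away. At least 1 site thus lies downstream of every listed start, and all 3 sites lie downstream of the 3 outer starts. The next site of the chromosome outside ABR, at position 980178, was 37399 bp from 1017577, closer than any neighbouring pair inside the gene.

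TRAPPC9 had the widest spacing of the 28 genes. It is also the longest of the 5, with 730.9 kb of chromosome 8 (139727725 to 140458579). Its sites at 139830351, a thymine of the plus strand, and 140356759, a thymine of the minus strand, were 526408 bp apart, or 72.0% of the gene's length. At 139830351, 6 of 23 reads were C in library 1 (26.1%) and 4 of 16 in library 2 (25.0%). At 140356759 there were 6 of 29 (20.7%) in library 1 and 4 of 19 (21.1%) in library 2. The libraries differed by no more than 1.09 percentage points at these sites. The share of summed reads at 140356759, 20.8%, was the lowest of all 967 sites, just above the limit of 20% that the listed values keep to. Outside the gene, the nearest other site was 770.2 kb away.

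RANBP10 covers 83.5 kb of chromosome 16 (67723070 to 67806560) and held sites at 67738373 and 67776394, 38021 bp apart. Both were thymines of the minus strand, on which the gene runs, so they lie on its coding strand. They lay 68.2 and 30.2 kb downstream of its start. At 67738373, 9 of 29 reads were C in library 1 (31.0%) and 5 of 19 in library 2 (26.3%). At 67776394 there were 3 of 14 (21.4%) in library 1 and 4 of 18 (22.2%) in library 2, the lowest number of C reads that the limits allow at that coverage in each library. No other site lay within 706.6 kb of this pair.

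AP3D1 sits at the edge of the selection. The gene covers 63.6 kb of chromosome 19 (2100988 to 2164616), the shortest of the 5, and its plus-strand sites at 2152371 and 2153531 were 1160 bp apart, or 1.82% of its length. This was the smallest of the 27 distances over 1 kb between neighbouring sites that share a gene. The next above it was 1995 bp in the cadherin gene CDH4, and the nearest below 1 kb was 890 bp in the pseudogene RPL32P3. For AP3D1 "widely spaced" thus holds only in the sense of the 1 kb limit. At 2152371, 5 of 23 reads were C in library 1 (21.7%) and 3 of 13 in library 2 (23.1%). At 2153531 there were 5 of 23 (21.7%) in library 1 and 6 of 19 (31.6%) in library 2. Coverage and C reads of the sites were thus equal in library 1 and unequal in library 2.

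EHMT1 covers 217.1 kb of chromosome 9 (137619005 to 137836127) and held sites at 137699488 and 137759004, 59516 bp apart. The gene runs on the plus strand. The thymine at 137699488 lies on the plus, coding strand, 80.5 kb from the start, and that at 137759004 on the minus, template strand, 140.0 kb from it. At 137699488, 5 of 22 reads were C in library 1 (22.7%) and 10 of 24 in library 2 (41.7%). This was the widest gap between libraries among the 11 sites, -18.9 percentage points for library 1 minus library 2 (95% interval -42.2 to 7.98). At 137759004 there were 5 of 16 (31.2%) in library 1 and 4 of 13 (30.8%) in library 2, a gap of 0.481 points.

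**Figure D1:**
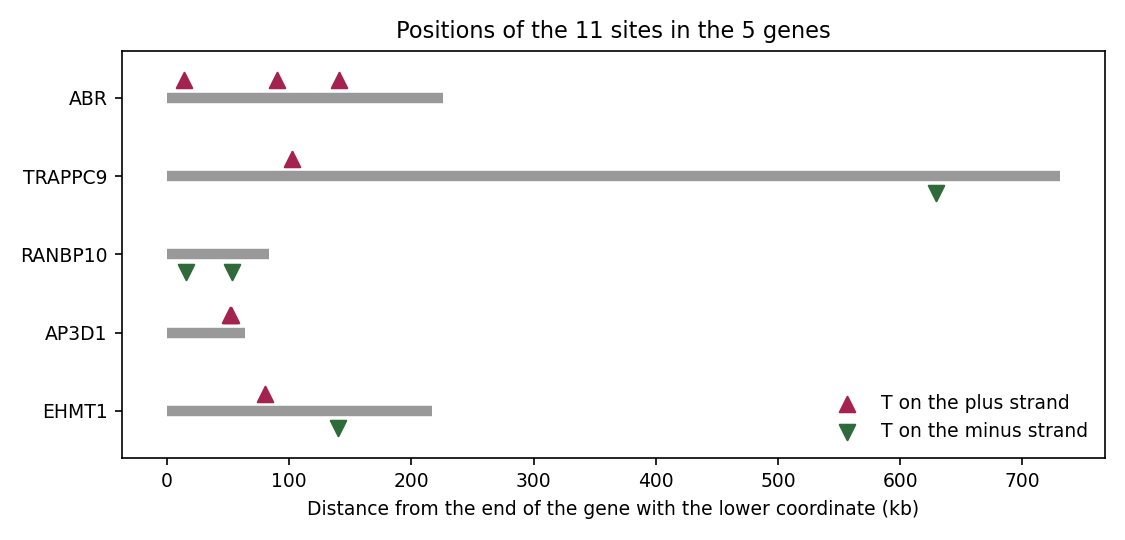
Position of each site along its gene, in kb from the end of the gene with the lower coordinate. Triangles pointing up are thymines of the plus strand and triangles pointing down are thymines of the minus strand, and each grey bar is a gene drawn to scale. The AP3D1 sites, 1160 bp apart, fall on the same point at this scale, while those of TRAPPC9 span 72.0% of the gene.

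Per length, the 5 genes held between 0.274 sites per 100 kb (TRAPPC9) and 3.14 (AP3D1), with 0.921 in EHMT1, 1.33 in ABR and 2.40 in RANBP10. Their chromosomes held 0.0379 (chromosome 8, TRAPPC9) to 0.143 (chromosome 19, AP3D1). A gene chosen for holding several sites will tend to exceed its chromosome, so the excess is no result. The order of the 5 runs against gene length in all but 1 neighbouring step, since ABR is slightly longer than EHMT1 but has 3 sites. All genes but ABR hold 2 sites, so dividing by length fixes this order, and it is no result either. The genes had a median length of 217.1 kb (63.6 to 730.9). The other 23 genes with all sites over 1 kb apart had a median of 167.6 kb, the 21 genes whose sites all lie within 50 bp 175.8 kb, and the 469 protein-coding genes with 1 site 71.0 kb. The median of all 20037 protein-coding genes was 24.1 kb. The sets of 23 and 21 also hold non-coding genes, and what lies behind the lengths was not tested.

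Strands were mixed. In 3 of the 5 genes (ABR, RANBP10 and AP3D1) all sites were thymines of 1 strand, and in TRAPPC9 and EHMT1 the strands differed. Of the 6 neighbouring pairs in the 5 genes, 4 shared a strand. Over all 27 pairs more than 1 kb apart in 1 gene, 15 did (55.6%, exact 95% interval 35.3 to 74.5). Relative to transcription, 3 of the 7 sites of ABR, RANBP10 and EHMT1 were on the coding strand and 4 on the template strand. Among all 418 sites in protein-coding genes with a listed direction, 213 were on the coding strand (51.0%, exact 95% interval 46.1 to 55.8). The exact binomial test gave p = 0.732, two-sided. The interval and the test take sites as independent, though sites within 50 bp of each other can come from the same reads.

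**Figure D2:**
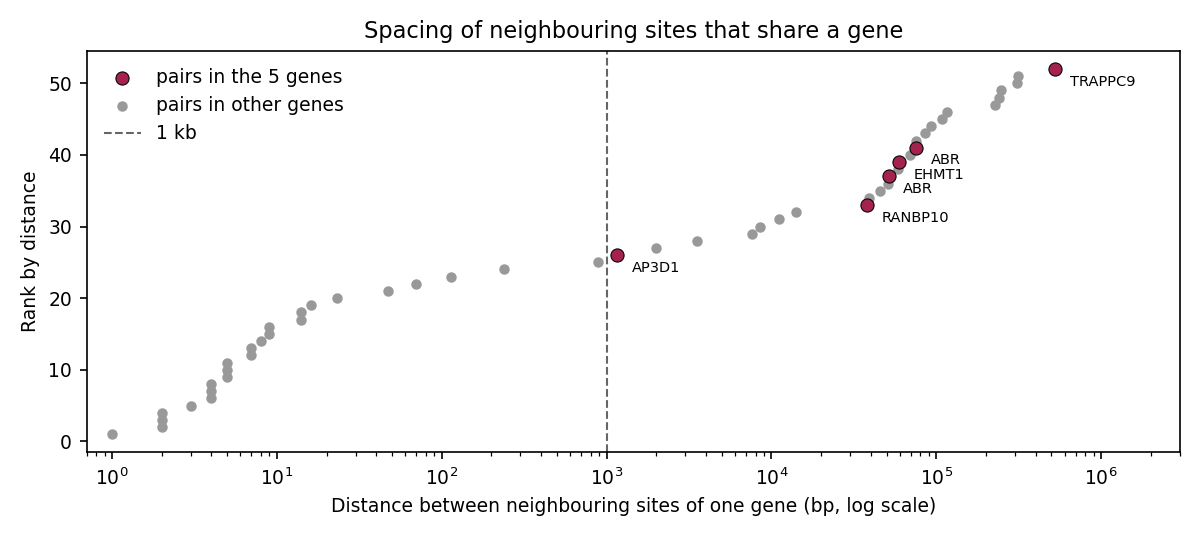
Distance between neighbouring sites that share a gene (horizontal, bp, log scale) against the rank of the pair by distance (vertical), for 52 pairs. Dark red points are the 6 pairs of the 5 genes and grey points are pairs of other genes. AP3D1 lies just right of the dashed line at 1 kb, and TRAPPC9 is the pair farthest apart.

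The next question was whether sites of a gene carried the same share of C. No difference was detectable. In ABR, the site at 1093243 had 32.7% of summed reads and that at 1017577 had 22.6%, a difference of 10.1 percentage points (95% interval -10.4 to 27.7). The site at 1144709 had 27.0% and that at 1093243 had 32.7%, a difference of -5.67 points (-23.5 to 13.8). In RANBP10, the site at 67776394 had 21.9% and that at 67738373 had 29.2%, a difference of -7.29 points (-25.0 to 12.8). The gaps of the other genes were smaller, and every interval held 0.

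TRAPPC9 differed by -4.81 points (-22.7 to 12.6) for the site at 140356759 minus that at 139830351. In AP3D1 the difference was 3.97 points (-15.3 to 22.2), and in EHMT1 -1.57 points (-21.5 to 20.1), each for the site of higher position minus the other. Fisher's exact test on summed reads, two-sided and adjusted by Benjamini-Hochberg over the 52 neighbouring pairs of the table, gave an adjusted p of 1 for all 6 pairs, with unadjusted exact p from 0.454 to 1. It called 0 of the 52 pairs (0%), and 0 had an unadjusted p under 0.05 (0%); coverage and the table's limits let only 16 of the 52 reach such a p. An exact test stratified by library also called 0, with 0 under 0.05 unadjusted. The smallest p so allowed was 0.0200 to 0.0428 over the 6 pairs, so only the most extreme shares could have passed before adjustment. After adjustment none of the 6 pairs could have been called, because too few of the 52 could reach a p under 0.05. The intervals reach 27.7 points, and the sites of a gene are not shown to be alike.

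The libraries were then compared at each site. Library 1 was higher at 5 of the 11 sites and library 2 at 6, and the gap was under 5 points at 7 of the 11. The same counts over all 967 sites are not given here. At 4 of these 7 sites the C reads stood at the lowest number allowed in both libraries. The small gaps are therefore not read as agreement of the libraries. Fisher's exact test, adjusted over all 967 sites, called 0 sites (0%) and had 0 with an unadjusted p under 0.05, which was within reach at 7 of the 967. The mid-p form of the test called 0 as well, with 0 under 0.05 unadjusted. For the 11 sites the unadjusted exact p ran from 0.217, at EHMT1 position 137699488, to 1. This test could not pass here: the smallest p that coverage and limits allow at the 11 sites was 0.0640 to 0.270. Exact 95% intervals over summed reads were 24.5 to 35.5 points wide. They cover counting error only, since reads without molecular identifiers need not be independent molecules. They also take no account of the limits on C reads and share that all listed sites keep to.

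**Figure D3:**
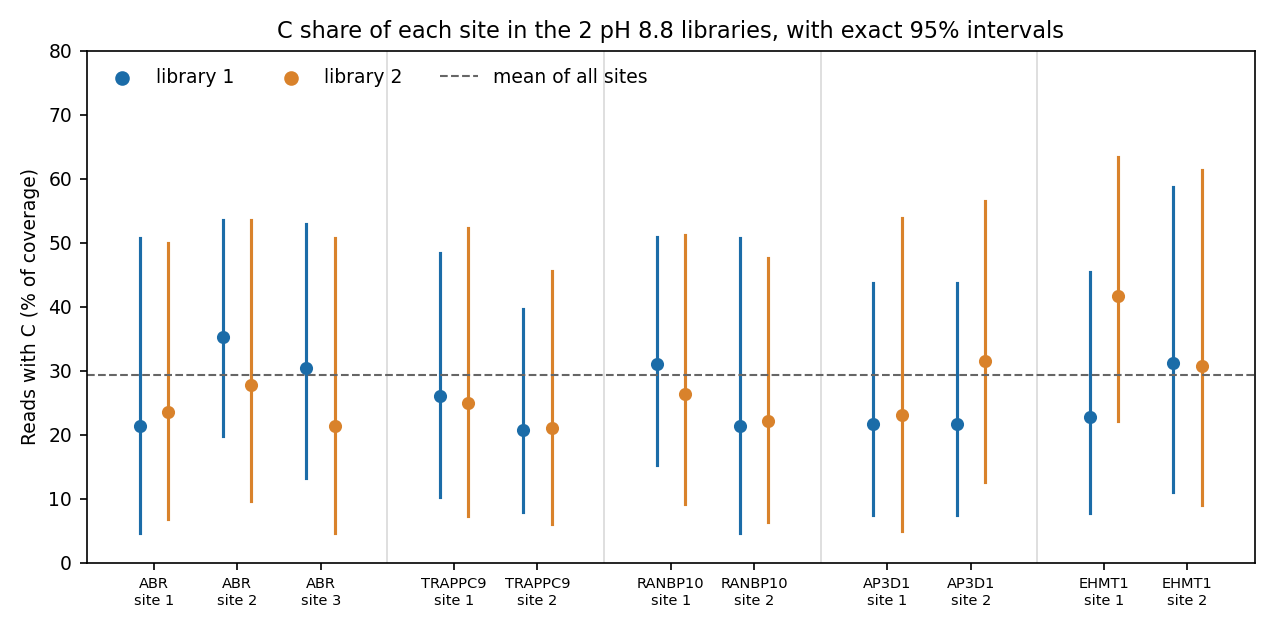
Share of reads with C (vertical, % of coverage) at each of the 11 sites in library 1 (left point of each pair) and library 2 (right point), with exact 95% intervals; sites of a gene are numbered by position. The dashed line is the mean over all 967 sites, 29.4%. Intervals of the libraries overlap at every site, and the first EHMT1 site has the widest gap.

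Set beside the rest of the table, the 11 sites had lower shares and more reads. Their mean share of C was 25.8% in library 1 and 26.8% in library 2, against 28.8% and 30.0% at the 956 other sites. The mean over libraries was 26.3% ± 0.679 at the 11 sites and 29.4% ± 0.849 at the others (SD, n = 2), a difference of -3.14 points. No test was made of this difference, because sites are not replicates. The interval of each of the 11 sites held the mean over all sites, 29.4%. This held even for TRAPPC9 position 140356759, where C reads stood at the lowest number allowed in both libraries (interval 10.5 to 35.0%). That site had the lowest share of all 967. The intervals therefore cannot decide whether the 11 sites had lower shares than the others. Over summed reads the difference was -2.04 points, and with at least 15 reads in each library it was -0.823 points (27.6% at the 6 sites left, against 28.4% at the others).

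Mean coverage was 22.7 ± 6.36 reads (SD over sites) at the 11 sites and 17.3 ± 6.03 at the others in library 1, and 17.3 ± 3.23 against 15.2 ± 4.88 in library 2. The limits of the table (at least 10 reads, at least 3 C reads, a share above 20% and below 50%) admit lower shares at higher coverage. At 6 of the 11 sites in each library (54.5%) the C reads stood at the lowest number allowed, against 51.2% of the other sites in library 1 and 47.8% in library 2. In both libraries at once this held at 4 of the 11 (1 site in each of ABR, TRAPPC9, RANBP10 and AP3D1) and at 24.0% of all sites. The 5 genes also had the most reads of the 28 genes, summed over sites and libraries. They had 75 (EHMT1) to 120 (ABR, with 3 sites), and none of the other 23 had more than 73. The 11 sites thus differ in coverage from the genes most like theirs as well. The part of coverage and limits in the lower mean share was not tested.

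**Figure D4:**
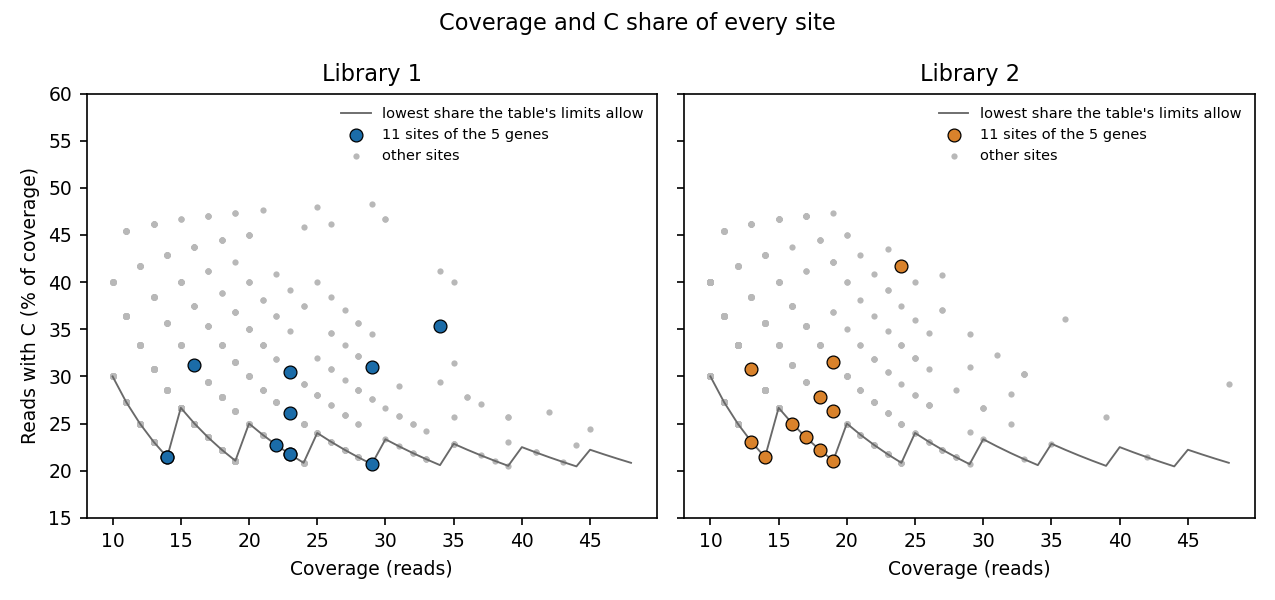
Coverage (horizontal, reads) and share of reads with C (vertical, % of coverage) of every site in library 1 (left panel) and library 2 (right panel). Large points are the 11 sites of the 5 genes, some of which coincide, small grey points are the 956 other sites, and the line is the lowest share the table's limits allow. In each library 6 of the 11 sites lie on the line.

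Coverage also bears on the count of sites. With at least 15 reads required in each library, 6 of the 11 sites were left, both in TRAPPC9 and 1 in each of the other genes. TRAPPC9 was then the only gene of the table with more than 1 site and all of them over 1 kb apart. With at least 20 reads in all and 5 C reads in each library, 4 sites were left, 1 in each of ABR, RANBP10, AP3D1 and EHMT1.

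Relatives and partners of TRAPPC9, RANBP10, AP3D1 and EHMT1 were looked up for sites, in lists drawn up with these genes as members. TRAPPC9 was the only one of 15 TRAPP subunit genes with a site, and EHMT1 the only one of 14 genes of lysine 9 methylation, so EHMT2 held none.

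Of 14 genes of the CTLH ligase and Ran binding, RANBP10 and RANBP2, the nuclear pore protein, held a site. RANBP2 (chromosome 2, position 108997715) had 3 C reads of 14 in library 1 and 4 of 10 in library 2. Of 24 adaptor subunit genes, AP3D1 and AP2A2, a subunit of the endocytic adaptor AP-2, held a site. AP2A2 (chromosome 11, position 992006) had 4 C reads of 18 in library 1 and 4 of 13 in library 2. Over all 20037 protein-coding genes, 513 (2.56%) held a site. Each list contains a gene chosen for its sites, so these counts support nothing about the lists.

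Of the 23 other genes with all sites over 1 kb apart, the 5 with the widest distance between the outermost held 2 sites each. They were CDH12, a cadherin gene (314.4 kb), ADK, the adenosine kinase gene (309.6 kb), the non-coding MIR100HG (246.4 kb), IGF1R, the receptor of insulin-like growth factor 1 (241.3 kb), and SIPA1L3 (228.7 kb). All lay farther apart than the sites of ABR (127.1 kb between the outermost) and closer than those of TRAPPC9. In IGF1R, on chromosome 15, the site at 98662981 had 5 C reads of 23 in library 1 and 3 of 10 in library 2, and that at 98904259 had 3 of 10 and 5 of 11. ADK, on chromosome 10, had 3 C reads of 13 and 8 of 19 at position 74238048, and 4 of 10 and 6 of 17 at 74547697. The 10 sites of these genes had 10 to 23 reads per library, against 13 to 34 at the 11 sites.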

How the data were processed

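The submitters' processing notes name hg38, Bowtie2, Trim Galore and MACS2 2.2.6. The rule behind the site list is not stated in these notes. Per the file headers, the authors deposited counts (coverage and C reads of a site in a library). They also deposited a fraction, the C reads over the coverage, which matched the counts at all 967 sites in each library to within 1e-09. A second table gave the reference base only; its 10 number columns without headers were not used. Limits of the table were read from the values. Coverage summed over sites was 16795 reads in library 1 and 14756 in library 2.

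Sites were assigned by RefSeq start and end of 59679 genes, whose exons and introns were not used here. Shares have exact (Clopper-Pearson) 95% intervals, except the approximate limit for 0 of 7 sites in a promoter window, and differences have Newcombe's. Fisher's exact tests ran over the whole table with Benjamini-Hochberg adjustment at 0.05 and were tested on simulated data. The simulated differences were larger than the limits of the table allow, so they do not show how the tests perform here. Tests against input and pH 7.2 were planned but need values other than those of pH 8.8 and were not run. Whether library 1 and library 2 are separate cultures is not in the labels, so differences between them may be technical. The Fisher tests take reads as units and estimate no spread between libraries or cultures. Named were the 5 genes, the 5 other genes with most and then most widely spaced sites, and members of the reported lists with a site; CDH4 and RPL32P3 were named after their values were seen. The tables hold no expression, so the cell type was not checked against markers. One list is not reported here. The 5 genes and the lists were chosen with earlier results of these data known. Calculations used scipy 1.17.1, pandas 2.3.3 and numpy 2.4.6 in Python 3.11.15, and plots matplotlib 3.10.9.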

Additional observations from a re-analysis of the deposited data

How the results depend on the processing

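The number of sites in the 5 genes was 11 with genes widened by 1 kb, 6 with at least 15 reads in each library, and 4 with at least 20 reads in all and 5 C reads in each. The number of genes with all sites over 1 kb apart was 28. It was 22 at 10 kb, 8 at 100 kb, 24 among protein-coding genes, 29 in widened genes and 1 with at least 15 reads in each library. The mean share of the 11 sites was 25.8 to 26.8% without each replicate in turn, 26.9% over summed reads and 27.6% with at least 15 reads in each library. Its difference from the other sites was -3.27 to -3.02 points without each replicate, -3.08 against protein-coding genes, -2.04 over summed reads and -0.823 with at least 15 reads in each library; it stayed negative in these 5 settings, and the cause of the shift was not tested. The count of sites called between libraries was 0 under both alternatives and that of pairs 0 in the 4 alternatives, leaving out each replicate included. These zeros say nothing about stability, since an unadjusted p under 0.05 was possible at only 7 of 967 sites and 16 of 52 pairs. For the count on the coding strand (3 of 7), the alternative of sites in 1 gene only left out no site. No paired analysis was possible because the values used belong to 1 group. Depth limits each share to an interval of at least 24.5 points.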
